A study of Mus musculus with 4 samples.

Results

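The forkhead, T-box and Gata factors are 3 families of DNA-binding proteins, and 66 of the 46946 genes in the deposited count table belong to them. They were chosen by symbol: Foxa to Foxs with a number, Tbx with a number, and Gata1 to Gata6, together with Eomes, Tbr1 and T (Brachyury). This gave 44 forkhead genes, 16 T-box genes and 6 Gata genes. Their RNA was measured by polyA sequencing in 4 untreated mouse tumours of the genotype K27M, which the labels call PDGFB K27M and trace to neural stem cells with PDGF and K27M. K27M replaces lysine with methionine in the tail of histone H3 and blocks methylation by the Polycomb complex PRC2. The series' own design text describes injected cells of diffuse intrinsic pontine glioma (DIPG) with mutant histone H3.3 as the source, and no value here decides between the 2 sources. All 4 tumours form 1 group, with no normal brain, cultured cells or other genotype beside them, so every comparison below is between genes or between single tumours. The names T14, T10, T8 and TUN are the table's own.

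Forkhead proteins bind DNA through a winged-helix domain, T-box proteins through the domain first known from Brachyury, and Gata proteins through zinc fingers. Many of them set up germ layers, limbs, heart, blood or brain regions in the embryo, and in other tissues such genes are classic targets of Polycomb repression. Several forkhead subfamilies differ in this: FoxK, FoxO, FoxN and FoxJ members are known for broad expression and act in metabolism, stress and cell division.

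The tumour libraries held 21664889 to 24369339 counts. Markers of oligodendrocyte precursors, which are known to divide in response to PDGF, were all detected, with 5848, 6797, 10141 and 7782 summed CPM (a count scaled to library size) in T14, T10, T8 and TUN. T14 and T10 also held far more RNA of neurons than T8 and TUN, with 2716, 2533, 339 and 292 summed CPM over 7 markers in T14, T10, T8 and TUN. T14 and T10 thus stand apart from T8 and TUN in neuron markers. Astrocyte markers were highest in T14, with 5374, 2945, 1688 and 1570 summed CPM over 5 genes in T14, T10, T8 and TUN. Marker sums are given beside genes below, and not all of them move with the gene. In bulk tissue, fewer cells of a type and less RNA per cell cannot be told apart.

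Of the 66 genes, 24 were detected, meaning 1 CPM or more in all 4 tumours. Another 10 reached 1 CPM in 1 to 3 tumours and are called mixed, and 32 stayed under 1 CPM in every tumour and are called silent. Of all 46946 genes of the table, 13245 (28.2%) were detected, 1829 (3.9%) were mixed and 31872 (67.9%) were silent. In single tumours, 1 CPM was reached by 30, 31, 28 and 27 of the 66 genes (T14, T10, T8, TUN). Of all 46946 genes a smaller share did in each tumour: 14383 (30.6%), 14551 (31%), 13702 (29.2%) and 13806 (29.4%). The families differed in their counts: 20 of 44 forkhead genes were detected, against 3 of 16 T-box genes and 1 of 6 Gata genes. Mixed genes numbered 5 among forkheads, 5 among T-box genes and 0 among Gata genes. No read at all was counted for 9 of the 66 genes, 8 of them forkheads, while 20985 of all 46946 genes (44.7%) had none. Some forkhead subfamilies fell on one side. All members of Foxj (3 genes) and Foxk (2 genes) were detected, and all of Foxa, Foxb, Foxe, Foxi and Foxl (2 to 3 genes each) were silent. Foxm, Foxq and Foxs, which were detected, and Foxh, which was silent, hold 1 gene each and could not be split. The Foxc, Foxd, Foxf, Foxn, Foxo, Foxp and Foxr subfamilies were split.

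**Figure D1:**
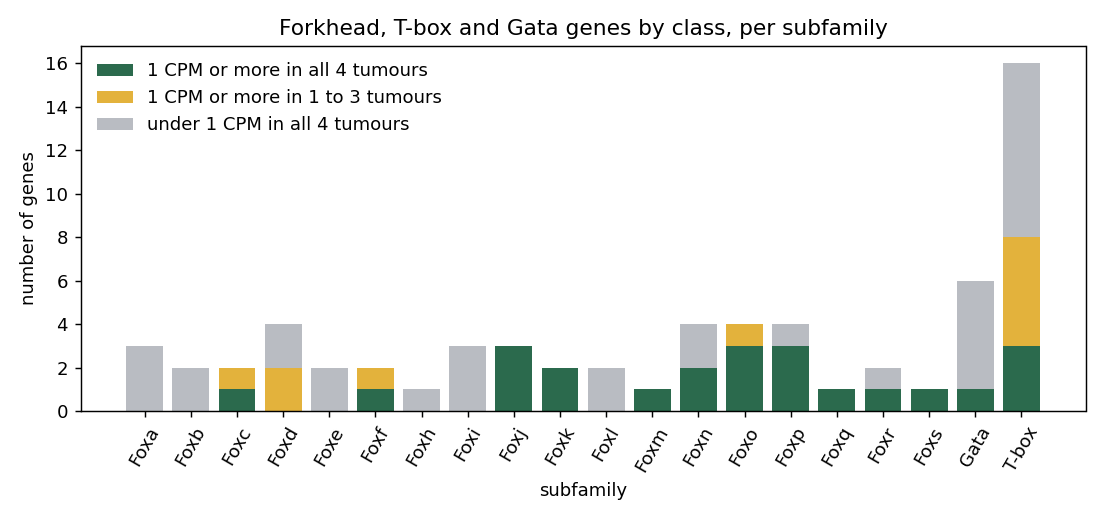
Stacked bars count the genes of each subfamily that were detected (1 CPM or more in all 4 tumours), mixed (in 1 to 3) or silent (in none). The Foxj, Foxk and Foxo bars hold no silent gene, and the Foxa, Foxi and Foxb bars hold only silent genes.

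Per length, the detected genes were modest in level. Their median was 4.03 RPKM (CPM per kilobase of merged exons), against 8.47 RPKM for all 13245 detected genes. Foxk2 had the highest level, 25.3 ± 3.41 RPKM (SD, n = 4), above 81.3% of all detected genes, and Gata2 the lowest, 0.521 ± 0.181 RPKM, above 1.71% of them. Between them stood Foxo3 at 17.4 ± 4.52, Foxm1 at 15.3 ± 6.62 and Foxo4 at 14.8 ± 1.97 RPKM, and these 3 do not differ beyond their spread. The 6 genes with the highest CPM, Foxk2, Foxo3 and Foxm1 at their head, took 55.4%, 56.6%, 65.8% and 65.5% of all CPM of the 66 genes in T14, T10, T8 and TUN. Forkheads as a family took 94.8% to 96.7% of it in each tumour. The 32 silent genes together summed to 3.60, 4.36, 2.97 and 2.55 CPM in the same order.

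**Figure D2:**
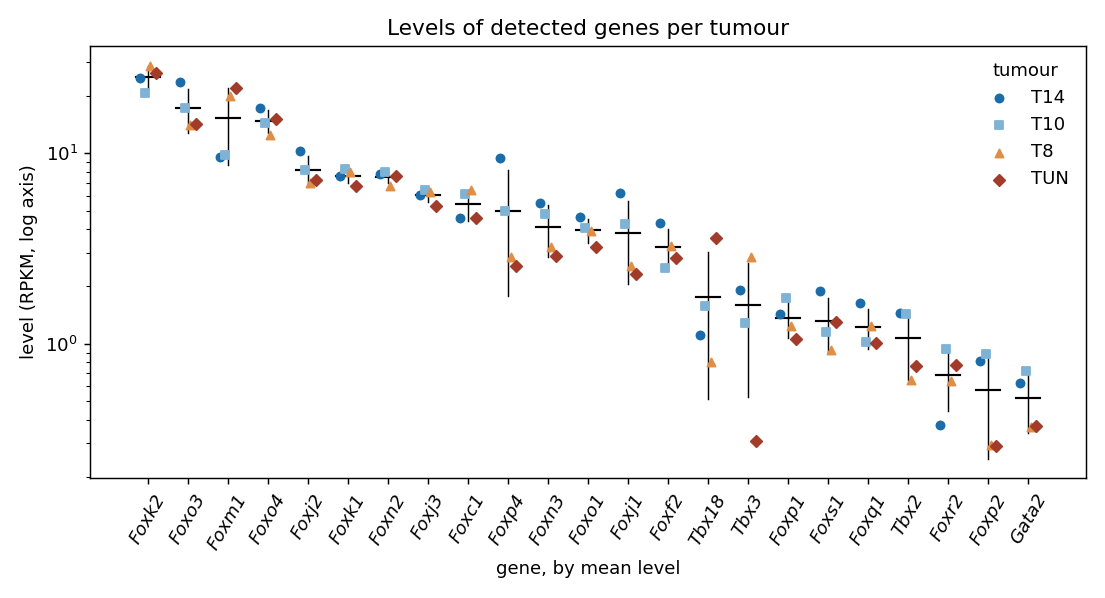
Level of detected genes in RPKM on a log axis, with a point per tumour and a bar at the mean ± SD over the 4 tumours. Foxk2 stands at the top and Gata2 at the bottom, and Tbx3 and Tbx18 have the widest spread.

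Promoter windows (the 250 bases before the annotated start in RefSeq, build GRCm38.p6, which is mm10) were found for 44 of the 66 genes. That is 66.67%, under the 80% needed for a check over the set, so no comparison of classes was made and the counts below only describe the windows found. A window counts CG letter pairs (CpG) on 1 strand, and over the 32851 windows of all genes its median was 6 and its highest value 56. The 7 windows below were picked by hand to show genes of each kind described below: Foxk2 (highest level), Tbx18 and Foxr2 (detected, low), Eomes and Foxd2 (high in a single tumour), and Foxi1 and Foxi3, factors of the inner ear and of epithelia (no read in any tumour). Foxk2 lies at chr11:121259737-121259986 (plus strand, 48 CpG, more than in 99.8% of windows) and Foxr2 at chrX:153118538-153118787 (plus strand, 3 CpG, more than in 29% of them). Tbx18 lies at chr9:87731261-87731510 (minus strand, 15 CpG), Eomes at chr9:118477939-118478188 (plus strand, 8 CpG) and Foxd2 at chr4:114908899-114909148 (minus strand, 16 CpG). Foxi1 lies at chr11:34208090-34208339 (minus strand, 4 CpG) and Foxi3 at chr6:70956356-70956605 (plus strand, 24 CpG, more than in 88% of windows). Sequences run 5′ to 3′ and capitals mark each CG pair.
Foxk2: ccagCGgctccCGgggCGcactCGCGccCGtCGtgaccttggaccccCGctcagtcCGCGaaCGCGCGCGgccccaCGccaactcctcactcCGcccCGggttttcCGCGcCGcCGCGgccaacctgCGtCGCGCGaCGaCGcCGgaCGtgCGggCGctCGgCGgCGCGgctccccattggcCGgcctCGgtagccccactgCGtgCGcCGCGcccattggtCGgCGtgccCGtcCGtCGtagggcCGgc
Foxr2: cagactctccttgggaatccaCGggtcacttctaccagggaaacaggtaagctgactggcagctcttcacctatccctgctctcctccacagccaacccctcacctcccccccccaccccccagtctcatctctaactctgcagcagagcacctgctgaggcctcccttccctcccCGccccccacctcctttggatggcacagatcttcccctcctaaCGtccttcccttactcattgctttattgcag
Tbx18: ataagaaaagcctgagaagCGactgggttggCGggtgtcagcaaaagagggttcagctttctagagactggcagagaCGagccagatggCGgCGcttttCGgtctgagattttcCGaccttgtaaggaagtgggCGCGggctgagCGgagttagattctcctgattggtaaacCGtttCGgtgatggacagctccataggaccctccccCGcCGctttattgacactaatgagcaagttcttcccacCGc
Eomes: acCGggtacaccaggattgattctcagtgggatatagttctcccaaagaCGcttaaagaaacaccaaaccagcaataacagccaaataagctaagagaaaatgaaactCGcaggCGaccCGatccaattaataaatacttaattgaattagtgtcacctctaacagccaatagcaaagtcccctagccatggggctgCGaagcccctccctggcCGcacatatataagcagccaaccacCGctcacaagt
Foxd2: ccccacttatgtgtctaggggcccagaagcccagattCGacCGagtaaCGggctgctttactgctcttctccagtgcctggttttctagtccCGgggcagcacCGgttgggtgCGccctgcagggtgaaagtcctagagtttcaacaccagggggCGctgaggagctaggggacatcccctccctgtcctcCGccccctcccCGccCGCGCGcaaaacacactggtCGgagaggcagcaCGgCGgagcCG
Foxi1: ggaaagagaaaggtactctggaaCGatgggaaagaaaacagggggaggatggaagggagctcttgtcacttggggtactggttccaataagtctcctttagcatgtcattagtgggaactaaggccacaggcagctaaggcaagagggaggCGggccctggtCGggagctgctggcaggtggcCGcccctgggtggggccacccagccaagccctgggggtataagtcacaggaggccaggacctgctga
Foxi3: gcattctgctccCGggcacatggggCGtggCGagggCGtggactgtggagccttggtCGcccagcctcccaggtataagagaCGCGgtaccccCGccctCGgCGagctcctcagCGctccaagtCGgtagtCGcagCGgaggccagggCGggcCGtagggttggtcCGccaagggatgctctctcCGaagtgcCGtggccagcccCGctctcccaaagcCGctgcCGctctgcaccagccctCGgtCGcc
Of these windows, that of Foxi3, with no read, has more CpG than those of detected Tbx18 and Foxr2. That of Foxi1, also with no read, has fewer than those of detected Foxk2 and Tbx18. Windows picked by hand cannot show whether CpG goes with level. The letters TGTTTAC, a forkhead motif, occurred on either strand in 1 of the 44 windows (Foxa1, which was silent), against 3.17% of all windows. AGGTGTGA, a T-box motif, occurred in 0 of 44, against 1.12%. The Gata motif searched was AGATAA. It occurred in 2 of 44 (Tbx19 and Tbx22, both silent), against 9.99%. None of these 3 motifs contains another.

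FoxK proteins bind the deubiquitinase Bap1 and are part of the PR-DUB complex, which removes ubiquitin from histone H2A. Foxk2 (ENSMUSG00000039275.9, chromosome 11, 121259990 to 121309896 in mm10) had 131, 109, 152 and 140 CPM in T14, T10, T8 and TUN. Its paralog Foxk1 had 57.9, 62.5, 60.2 and 51.3 CPM. Neither varied much between tumours: the highest over the lowest value was 1.39 for Foxk2 and 1.22 for Foxk1. Per length Foxk1 was lower than Foxk2 in 4 of 4 tumours, by 1.71 ± 0.28 on the log2(RPKM + 0.1) scale (SD, n = 4). The two-sided exact sign-flip test gave p = 0.125, the smallest that 4 tumours allow, and 0.138 after Benjamini-Hochberg adjustment over 11 pairs of paralogs, so no pair can be called. All 9 listed PR-DUB partners were detected. The most abundant by CPM were the scaffold Hcfc1 (195, 223, 241 and 222 CPM) and Bap1 itself (153, 137, 145 and 149 CPM).

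Other broadly expressed forkheads include Foxj2, Foxj3, Foxn2 and Foxn3. Foxj3, a regulator of mitochondrial and muscle genes, had 66.5, 70.6, 69.1 and 58.3 CPM, and Foxn2, a less studied paralog of the cell cycle repressor Foxn3, had 57.7, 58.9, 49.9 and 55.9 CPM in T14, T10, T8 and TUN. With highest over lowest values of 1.21 and 1.18, they were the steadiest together with Foxk1. Foxj2 had 54.9, 43.6, 37.2 and 38.6 CPM and Foxn3 25.7, 22.3, 15 and 13.5 CPM, each lower in T8 and TUN, as the neuron markers were (2716, 2533, 339 and 292 summed CPM), whose part was not tested. Per length Foxj3 was lower than Foxj2 by 0.42 ± 0.25 and Foxn3 was lower than Foxn2 by 0.91 ± 0.37 on the log2(RPKM + 0.1) scale, in 4 of 4 tumours each (exact p = 0.125). The order of Foxj3 and Foxj2 turns round in CPM without length (0.61), because Foxj3 has the longer exons. The remaining members of these subfamilies, Foxn1 and Foxn4, were silent, with 0 counts and 1 count in all. Foxn1 is known from thymic epithelium and Foxn4 from retinal and spinal progenitors.

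FoxO proteins are held out of the nucleus when Akt phosphorylates them and otherwise switch on genes of stress resistance, cell cycle arrest and catabolism. Foxo3 (ENSMUSG00000048756.11, chromosome 10, 42181841 to 42276755) had 180, 131, 106 and 108 CPM in T14, T10, T8 and TUN. Foxo1 had 40.1, 35.1, 33.9 and 27.9 CPM and Foxo4 60.1, 50.1, 43.5 and 53 CPM. All 3 were highest in T14. Per length Foxo3 exceeded Foxo1 by 2.08 ± 0.21 on the log2(RPKM + 0.1) scale in 4 of 4 tumours (exact p = 0.125). Foxo6, the brain-enriched member, was mixed: it had 2.22, 2.24, 0.251 and 1.34 CPM, from 50, 55, 6 and 30 counts, and was under 1 CPM in T8. It was lower than Foxo1 per length by 2.81 ± 1.04 as log2(RPKM + 0.1), in 4 of 4 tumours (exact p = 0.125).

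All 16 genes listed as known FoxO targets were detected, and 10 of them were highest in T14, where 29.1% of all detected genes were. The sums of the 16 were 1659, 1346, 1113 and 1143 CPM across T14, T10, T8 and TUN. The most abundant were the mitophagy kinase Pink1 (408, 342, 184 and 177 CPM) and the CDK inhibitor Cdkn1b (256, 173, 204 and 207 CPM). The 9 regulators of FoxO in the PI3K and Akt pathway, all detected, had the opposite order at the ends, with 1365, 1525, 1644 and 1614 summed CPM. The most abundant of these were the PI3K regulatory subunit Pik3r1 (337, 447, 503 and 486 CPM) and Akt1 (222, 233, 326 and 278 CPM). None of the 16 targets and 9 regulators varied beyond the trend by the goodness of fit described below, where 4.34% of all genes tested did. T14 also had the most neuron RNA (2716 summed CPM, with 2533 in T10) and the most astrocyte RNA (5374 summed CPM, with 2945 in T10). The part of neurons and astrocytes in these sums was not tested.

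Foxm1 drives genes of the G2 phase and mitosis and is expressed in dividing cells. It had 54.8 and 56.2 CPM in T14 and T10, and 116 and 126 CPM in T8 and TUN (ENSMUSG00000001517.14, chromosome 6, 128362967 to 128376146). The values of T8 and TUN lie together above those of T14 and T10, with 2.31 as highest over lowest. All 12 listed targets were detected, and 11 of 12 were highest in TUN, where 25.4% of all detected genes were. Skp2, which marks Cdkn1b for destruction, was highest in T8. The summed CPM of the 12 was 372, 337, 644 and 813. The kinetochore genes Cenpf (85.9, 98.1, 130 and 151 CPM) and Cenpa (36.5, 29.9, 68.8 and 98.3 CPM) were the most abundant. Foxm1 did not vary beyond the trend in edgeR's goodness of fit (unadjusted p = 0.112, n = 4 tumours, chi-square with 3 degrees of freedom), and 0 of the 12 targets were called, all of them tested, where 4.34% of all genes tested were. Neuron and mature oligodendrocyte RNA ran the other way, with 3108, 4155, 811 and 797 summed CPM of mature oligodendrocyte markers, and their part in the Foxm1 values was not tested.

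FoxP proteins are repressors that form dimers with each other. Foxp4 (ENSMUSG00000023991.16, chromosome 17, 47867133 to 47924645) had 46.5, 24.5, 14 and 12.6 CPM and Foxp2, known for its role in vocal learning and in Purkinje and striatal neurons, had 13.4, 14.4, 4.82 and 4.78 CPM. Both were higher in T14 and T10 than in T8 and TUN, with highest over lowest at 3.69 and 3.01. Foxp1 had 19.8, 24.1, 17.1 and 14.6 CPM and was the steadiest of the 3 (1.65). Foxp3, the factor of regulatory T cells, was silent with 2, 6, 0 and 2 counts, and 0 of 5 T and NK cell markers were detected. Per length Foxp4 exceeded Foxp1 by 1.60 ± 0.70 in 4 of 4 tumours, with 2.63 in T14 and 1.45, 1.14 and 1.19 in T10, T8 and TUN, and Foxp2 was lower than Foxp1 by 1.25 ± 0.49 in 4 of 4, both as log2(RPKM + 0.1) (exact p = 0.125). Along with Tbx3, Foxp4 had an unadjusted goodness-of-fit p under 0.05, at 0.0451, but its adjusted p from edgeR was 0.553 and it was not called. Purkinje markers summed to 3619, 622, 398 and 308 CPM and striatal markers to 107, 49.5, 24.8 and 23.7 CPM. Both sums were higher in T14 and T10 than in T8 and TUN, as Foxp4 and Foxp2 were. From T14 to T10 both sums fell, as Foxp4 did, while Foxp2 did not. The part of these neurons in the Foxp4 and Foxp2 values was not tested.

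Foxj1 switches on the genes of motile cilia and in brain marks ependymal cells, which line the ventricles. It had 16.2, 11.2, 6.75 and 6.12 CPM, highest in T14 and lowest in TUN (ENSMUSG00000034227.7, chromosome 11, 116330704 to 116335399). Of 9 genes of its cilia programme, 4 were detected and 4 were mixed, with 29.9, 39.9, 29 and 25.4 summed CPM. Its most abundant members were Cfap43 (9.63, 11.2, 19.6 and 13.5 CPM) and Cfap54 (4.84, 10.3, 4.53 and 6.16 CPM), both parts of the ciliary axoneme, and neither was highest in T14. Ependymal markers were low but in the order of Foxj1: 10.3, 5.41, 1.3 and 0.714 summed CPM over 5 genes, none of them detected in all 4 tumours. Their part in the Foxj1 values was not tested.

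**Figure D3:**
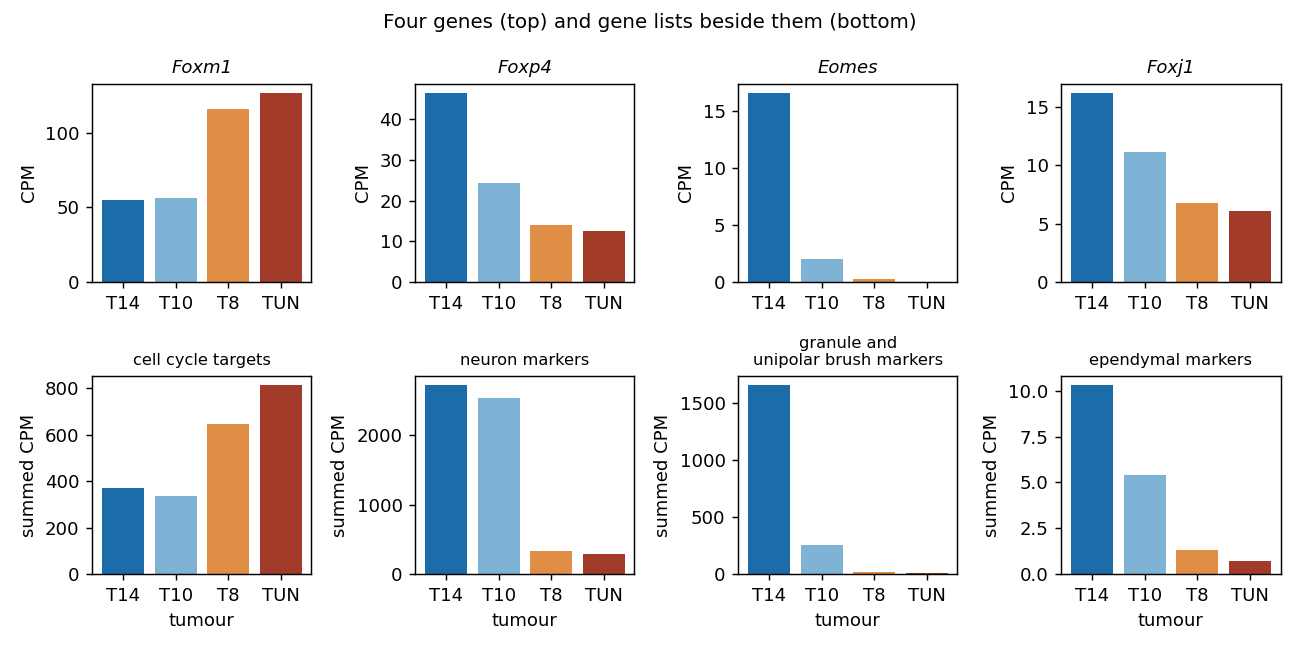
CPM per tumour of Foxm1, Foxp4, Eomes and Foxj1 (top) and, below each, the summed CPM of the gene list given beside it. Foxm1 and its targets are higher in T8 and TUN, and the other 3 genes and the lists drawn with them are higher in T14 and T10. The list drawn below Foxj1 is the ependymal markers. Its cilia programme is not drawn and had another order, with 29.9, 39.9, 29 and 25.4 summed CPM in T14, T10, T8 and TUN.

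A group of detected genes is known from vessels, meninges and other mesenchyme. Foxc1, needed for meninges and mural cells, had 18.2, 24.2, 25.4 and 18 CPM (ENSMUSG00000050295.3, chromosome 13, 31806691 to 31810643). Foxf2, a regulator of brain pericytes, had 10.2, 5.9, 7.67 and 6.7 CPM, and Foxq1, an endothelial gene in brain, had 4.35, 2.73, 3.31 and 2.68 CPM. These 3 genes are neighbours on chromosome 13, with gaps of 64.8 kb between Foxq1 and Foxf2 and 175 kb between Foxf2 and Foxc1, and all 3 were detected. Foxs1, a pericyte marker, had 2.49, 1.51, 1.22 and 1.7 CPM. Tbx18, a marker of mural cells, had 5.24, 7.45, 3.77 and 16.9 CPM (ENSMUSG00000032419.8, chromosome 9, 87702800 to 87731260), so TUN was 4.49 times T8, and its goodness-of-fit p was 0.108 before adjustment (edgeR). Tbx2, a repressor of the cell cycle inhibitor genes, had 5.28, 5.21, 2.35 and 2.77 CPM, higher in T14 and T10, where the neuron markers were higher too. The part of neurons in the Tbx2 values was not tested.

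Most markers of these cells were detected: 6 of 6 endothelial genes, 5 of 6 pericyte and smooth muscle genes and 5 of 6 meningeal and fibroblast genes. Endothelial markers summed to 187, 152, 160 and 162 CPM, pericyte and smooth muscle markers to 234, 227, 176 and 138 CPM, and meningeal and fibroblast markers to 212, 254, 190 and 263 CPM. The last list did not move together: 2 of its 6 genes were highest in TUN and 2 in T14. Its most abundant gene, Col1a1, had 81.6, 109, 161 and 163 CPM. Islr had 12.5, 12.3, 1.26 and 2.41 CPM, Dcn 50.2, 49.8, 8 and 31.3 CPM, and Ogn 4.66, 8.3, 0.335 and 0.447 CPM. The pericyte and smooth muscle sum was lowest in TUN, where Tbx18 was highest. Of the 6 genes in that list only 1, the smooth muscle actin Acta2, was highest in TUN as Tbx18 was (14, 8.67, 4.9 and 17.4 CPM). Pdgfrb (56.1, 49.5, 47.1 and 39.9 CPM), Rgs5 (116, 117, 59 and 40.2 CPM) and Abcc9 (33.8, 37.6, 46.8 and 28.4 CPM) were lowest in TUN. Kcnj8 had 12.3, 10.3, 18.4 and 12 CPM, and the smooth muscle gene Myh11 had 2.17, 4.11, 0.251 and 0.268 CPM. The part of these cells in the Tbx18 values was not tested. The paralogs Foxf1, of visceral mesenchyme, and Foxc2, of lymphatic vessels, were lower: Foxf1 had 1.6, 0.814, 1.22 and 1.12 CPM, and Foxc2 1.6, 1.91, 0.88 and 0.313 CPM. Both were mixed, and both lie on chromosome 8 with 28.0 kb between them. Per length Foxf2 exceeded Foxf1 by 2.49 ± 0.08 and Foxc1 exceeded Foxc2 by 3.53 ± 0.80 on the log2(RPKM + 0.1) scale, in 4 of 4 tumours (exact p = 0.125). The ratio of Foxf2 to Foxf1 had the smallest spread of the 11. Counting was not stated to use strand: for Foxq1, 38.1% of the exon length is shared with the antisense gene A530084C06Rik (12 to 20 counts per tumour), and for Tbx18, 20.6% with D030062O11Rik (4 to 23 counts), so reads there cannot be told apart. In all, 18 of the 66 genes share exon bases with another gene.

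Tbx3 and Tbx5 are neighbours on chromosome 5. Tbx3, a repressor that delays senescence, had 12.7, 8.55, 18.8 and 2.05 CPM, from 286, 210, 449 and 46 counts (ENSMUSG00000018604.18, chromosome 5, 119670669 to 119684724). T8 was 9.16 times TUN, the widest span of the 24 detected genes. Its neighbour Tbx5, a heart and forelimb factor 148 kb away, had 0.888, 1.47, 6.41 and 0.0893 CPM from 20, 36, 153 and 2 counts. T8 was highest for both genes and TUN lowest. Of the 3 genes between them only Gm43050 reached 1 CPM in any tumour, with 0.178, 0.0814, 1.51 and 0 CPM, again highest in T8. The ratio of Tbx2 to Tbx3 had no fixed sign: it was -0.37, 0.14, -1.98 and 1.07 as log2(RPKM + 0.1) in T14, T10, T8 and TUN, a mean of -0.28 ± 1.28 (exact p = 0.75), and its mean without T8 was 0.28.

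Of the 28 genes tested, Tbx3 had the smallest goodness-of-fit p before adjustment, 0.0146, and was not called. Its adjusted p from edgeR was 0.236, with 0.0463 under a common dispersion, 0.179 to 0.459 under the other settings with TUN in, and 1 without TUN. Tbx5 was too low in TUN for that test. With a low-count limit that needed only 1 tumour, its adjusted p was 0.0342, with 0.0443 without any filter, all from edgeR. Under that limit Tbx5 entered only through the tumours where it was higher, so this call is no support for its spread. With each tumour left out under the looser limit, an alternative added after seeing the data, Tbx5 lost its call without T8 (adjusted p = 0.587 from edgeR) and without TUN (0.441). It kept it without T10 (0.0281) and without T14 (0.0489).

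Foxd2, a factor of kidney and paraxial mesenchyme, also stood out in T8. It had 0.355, 0.326, 3.48 and 0.714 CPM, from 8, 8, 83 and 16 counts (ENSMUSG00000055210.4, chromosome 4, 114906282 to 114908873). Foxd2os, a transcript from the opposite strand that starts beside it (114909257 to 114921967), had 0.399, 0.407, 7.21 and 2.81 CPM from 9, 10, 172 and 63 counts. The order of the tumours was the same at the top: T8 first and TUN second for both. Foxe3, a lens factor 16.3 kb from Foxd2, had 0 counts in every tumour. Foxd1, a marker of kidney stroma and forebrain progenitors, had 1.51, 2.04, 0.209 and 0.402 CPM and so was higher in T14 and T10, as the neuron sums were, and their part was not tested. Foxd3, a neural crest factor, was silent, with 0, 4, 0 and 2 counts. Of 5 neural crest and melanocyte markers, 3 were detected (Mitf, Dct and Pmel). The other 2 were silent: Mlana had 0, 1, 0 and 1 counts and Tyr 1, 1, 0 and 0 in T14, T10, T8 and TUN.

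The other mixed T-box genes lay near the limit. Tbx1, known for heart outflow and pharyngeal arches, had 0.977, 1.02, 1.42 and 0.759 CPM. Tbx15, a skeletal and adipose factor, had 1.95, 0.529, 0.838 and 1.16 CPM. Tbx20, a heart factor, had 0.178, 1.14, 0.461 and 0.0447 CPM, the last from 1 count. In all, 9 of the 66 genes had a value within a factor of 1.25 of the limit in some tumour: Foxc2, Foxf1, Foxr2, Foxs1, Tbx1, Tbx15, Tbx20, Tbx4 and Tbx5.

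**Figure D4:**
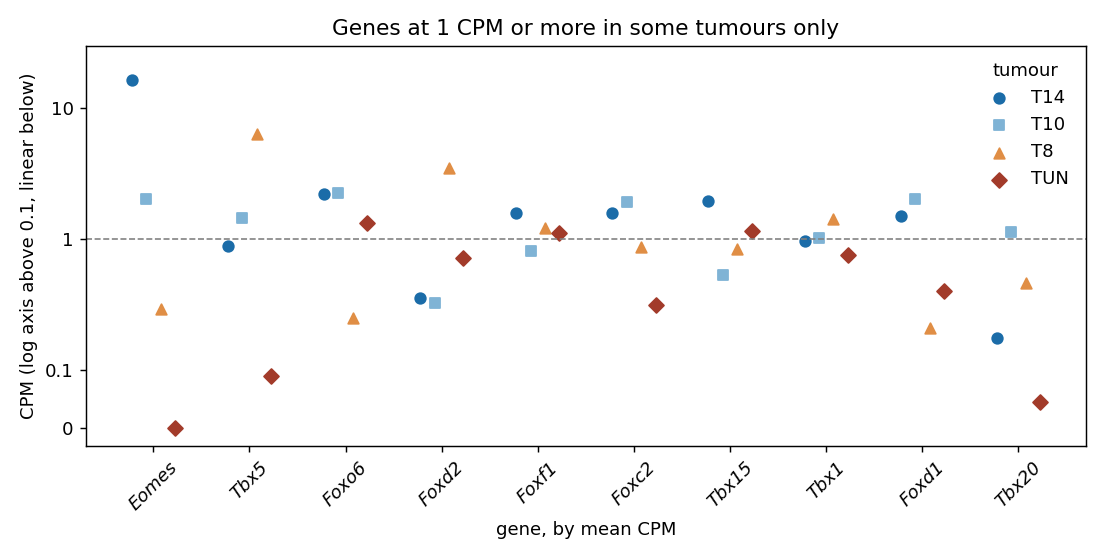
CPM per tumour of the 10 mixed genes on an axis that is linear near 0 and logarithmic above, with a dashed line at the limit of 1 CPM. Eomes is far highest in T14, Tbx5 and Foxd2 are highest in T8, and Foxf1 and Tbx1 stay closest to the line.

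Eomes (Tbr2) marks intermediate progenitors of the cortex and the unipolar brush cells of the cerebellum, and Tbr1 follows it in cortical neurons. Eomes had 16.6, 2.04, 0.293 and 0 CPM, from 374, 50, 7 and 0 counts (ENSMUSG00000032446.14, chromosome 9, 118478212 to 118486132). The 0 in TUN allows up to 0.134 CPM. The tumours fall in a steep order, with T14 far above the rest. Tbr1 was silent, with 11, 3, 1 and 3 counts. Eomes was left out of the goodness of fit by its low counts in T8 and TUN. With the limit in at least 1 tumour it was called (edgeR adjusted p = 6.51e-07, and 6.51e-07 without any filter), where 4.53% of all 16701 genes were. Under that limit Eomes entered only through the tumours where it was high, so this call is no support for its spread. With each tumour left out under that limit, an alternative added after seeing the data, its adjusted p ranged from 9.48e-07 to 0.0486, the highest without T14.

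Eomes moved with cerebellar and other neuron markers. The 5 granule and unipolar brush markers summed to 1659, 258, 24 and 7.95 CPM. Among them were the granule genes Cbln3 (747, 99.9, 6.16 and 0.357 CPM) and Gabra6 (370, 32.5, 1.93 and 0.0893 CPM), and Lmx1a, which marks unipolar brush cells, had 1.24, 1.22, 0.922 and 0.134 CPM. Of the 12 genes listed with Eomes and Tbr1 in the glutamatergic lineage, 8 were detected and tested, and 4 of these 8 were called, where 4.34% of all genes tested were. The sums of the 12 were 655, 301, 79.4 and 60.1 CPM. The vesicular glutamate transporter Slc17a7 had 212, 92.4, 21.4 and 10.5 CPM (edgeR adjusted p = 2.72e-08) and Neurod1, a granule cell factor, 151, 20.3, 1.09 and 0.402 CPM. Markers of cortical glutamatergic neurons summed to 226, 117, 38 and 29.9 CPM, and Emx1 among them was silent. The part of these cells in the Eomes values was not tested.

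Of the Gata factors, Gata2, a factor of blood progenitors and of midbrain GABA neurons, was the only one detected. It had 3.37, 3.91, 1.97 and 2.01 CPM (ENSMUSG00000015053.14, chromosome 6, 88193891 to 88207032), higher in T14 and T10. Gata3, which follows it in hindbrain and T cells, was silent with 4, 13, 10 and 3 counts. Per length Gata2 exceeded Gata3 by 1.79 ± 0.47 on the log2(RPKM + 0.1) scale in 4 of 4 tumours (exact p = 0.125). Gata1, the erythroid factor, had 2, 1, 0 and 1 counts, Gata4, of heart and gut, 0, 1, 1 and 0, and Gata6, of endoderm and smooth muscle, 6, 8, 2 and 7, while Gata5 had none. Erythroid markers nevertheless summed to 71.8, 9.81, 8.67 and 4.64 CPM, led by the globin Hbb-bs (56.5, 7.57, 6.83 and 3.21 CPM). Of 12 partner and programme genes of Gata factors, 9 were detected and tested, and the 2 called (4.34% of all genes tested were) were the GABA enzymes Gad1 (408, 143, 16.9 and 24.4 CPM, edgeR adjusted p = 3.05e-10) and Gad2 (106, 81.8, 8.09 and 5 CPM). Gad1 and Gad2 are made by many GABA neurons, and their part in the Gata2 values was not tested. Among the 5 mast cell markers only Kit, which other cells express too, was detected, and the mast cell protease Cma1 had no count.

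Foxr2 is normally silent in most tissues and is known as an oncogene of some brain tumours. Here it was detected in all 4 tumours, at 1.2, 3.01, 2.05 and 2.5 CPM from 27, 74, 49 and 56 counts (ENSMUSG00000071665.10, chromosome X, 153118786 to 153132861). Its level was 0.682 ± 0.239 RPKM (SD, n = 4), above 3.04% of all detected genes. Its paralog Foxr1 had no read in any tumour.

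Among the silent genes, the highest by mean CPM were Tbx4, Tbx6 and Foxl2. Tbx4, a hindlimb and lung factor that lies 44.5 kb from detected Tbx2, had 0.977, 0.855, 0.628 and 0.848 CPM. Tbx6, of presomitic mesoderm, had 0.533, 0.448, 0.587 and 0.313 CPM, and Foxl2, of ovary and pituitary, 0.444, 0.244, 0.461 and 0.179 CPM. Each was low in every tumour. Of the other 29 silent genes, 4 had 18 to 30 counts summed over the 4 tumours: Tbr1, Gata6, Gata3 and Foxb1, a diencephalic factor whose exons share 14% of their length with B230323A14Rik. A further 16 had 1 to 10 counts in all. They are the endoderm factors Foxa1, Foxa2 and Foxa3, with Foxb2, Foxd3, Foxh1, Foxl1, Foxn4, Foxp3, Gata1, Gata4, T (Brachyury), Tbx10, Tbx19, Tbx21 and Tbx22. The 9 with no count were Foxd4, Foxe1, Foxe3, Foxi1, Foxi2, Foxi3, Foxn1, Foxr1 and Gata5. A count of 0 allows up to 0.122 to 0.134 CPM per tumour, so these genes were not detectable at this depth.

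Whether the genes varied more between tumours than other genes of like abundance was tested by edgeR's intercept-only fit, in which each gene's residual deviance was set against a chi-square distribution (Benjamini-Hochberg adjustment across 14266 genes). Of the 66 genes, 28 passed its filter and 0 were called, and 2 (Tbx3 and Foxp4) had an unadjusted p under 0.05. Over all genes tested, 619 were called, which is 4.34%, and 1196 had an unadjusted p under 0.05. On simulated data of this size the test recovered 0% of genes changed 2-fold in 1 library, 18% at 4-fold, 72% at 8-fold and 90% at 16-fold, so 2-fold changes were beyond its reach there. Nothing in the labels says that the tumours came from separate animals, so p-values measure only the spread between these samples, which may be technical. The median highest over lowest CPM of the 24 detected genes was 1.82, against 1.54 for all 13245 detected genes. It was over 2 for 10 of 24 genes (41.7%, against 25.9% of all detected genes) and over 4 for 2 of them, Tbx3 and Tbx18 (8.33%, against 7.07%). The 24 genes had a lower median of 20.3 CPM, against 36.4 CPM for all detected genes, and the part of that in their spread was not tested.

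The tumours did not share the highest values evenly. Of the 24 detected genes, 11, 7, 4 and 2 peaked in T14, T10, T8 and TUN, where 29.1%, 19.7%, 25.9% and 25.4% of all detected genes were. The 2 highest in TUN were Foxm1 and Tbx18. T14 and T10 were the top pair for 11 of the 24 genes (45.8%), as for 32.0% of all detected genes. T8 and TUN were the top pair for 3 (12.5%), Foxk2 and Foxm1 among them, as for 33.8% of all detected genes.

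**Figure D5:**
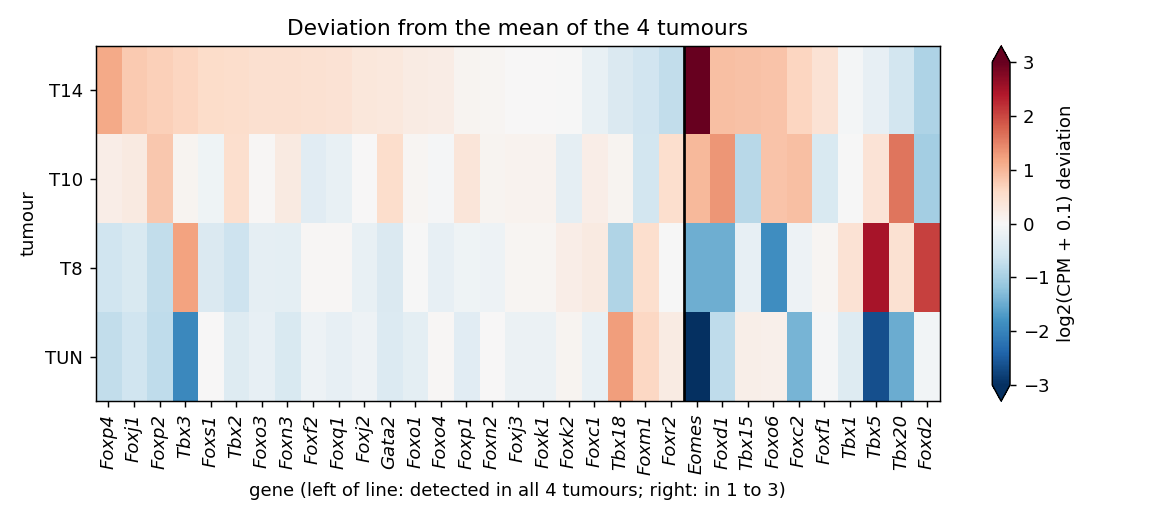
Heat map of each detected or mixed gene's deviation from its mean over the 4 tumours, as log2(CPM + 0.1), with the colour scale ending at 3 either way. Most detected genes are pale, Foxm1 is higher in T8 and TUN, and Eomes, Tbx5 and Foxd2 carry the strongest colours.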

How the data were processed

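Per the labels' protocols, RNA from 4 untreated tumours was taken with an RNeasy plus kit, made into polyA libraries with a TruSeq RNA kit, which does not mark strand, and sequenced on a HiSeq2500. The authors deposited whole-number read counts per gene. STAR, featureCounts and mm10 are named in the submitters' processing notes, and the name of the deposited table gives the annotation as GENCODE vM8. Tool versions, the strand setting and how multi-mapping reads were counted are not given in the sources used. Symbols matched 46451 of 46946 genes.

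The table's columns match no sample title one to one, so they carry no replicate number and simply stand for 4 tumours of the single group. There were 0 unused sample columns. Library totals were 23194257 (T14), 24369339 (T10), 24155724 (T8) and 21664889 (TUN). Counts were scaled by TMM (edgeR 4.0.16, R 4.3.3; factors 0.971, 1.01, 0.988 and 1.03) to CPM and, with the merged exon length, to RPKM. A count of 0 allows up to 3 counts, and such floors cover counting error only. The goodness of fit used the trended dispersion after edgeR's low-count filter and a threshold of 0.05. It was tested on simulated data. Ratios of 11 paralog pairs used a pseudocount of 0.1 and an exact sign-flip test (two-sided). A further 2 pairs, Foxd1 with Foxd3 and Tbr1 with Eomes, had no gene detected in all 4 tumours and were not computed. Far values were sought with Dixon's ratio.

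The genes and lists were chosen with earlier results of these data known. Genes named one by one were all detected and mixed members and the 3 silent members with the highest mean CPM, and of each list the 2 most abundant members. A detected gene and the list beside it are not reported here. Other list genes, overlapping genes and neighbours were named after their values were seen. Alternatives were DESeq2 1.42.0 size factors and dispersion outliers, library totals, other limits, filters, pseudocounts and dispersion, CPM without length, and leaving out each tumour. Leaving out each tumour under the looser low-count limit was added after seeing the data.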

Additional observations from a re-analysis of the deposited data

Results flagged for a closer look

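In 2 of the 37 genes of these families that were examined, 1 tumour lay far from the other 3 by Dixon's ratio at its critical value of the 95% level. Chance flags about 1 in 20 groups. Eomes had 16.6 CPM in T14, with 2.04 CPM in the next tumour, T10, and a ratio of 0.877. Foxd2 had 3.48 CPM in T8, with 0.714 CPM in the next tumour, TUN, and a ratio of 0.877. The granule and unipolar brush markers were also highest in T14 (1659 summed CPM), and Foxd2os was also highest in T8 (7.21 CPM). Their part in these values was not tested.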

How the results depend on the processing

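No paired analysis was possible because the tumours form a single group. The count of members called by the goodness of fit was 0 and became 2 with the low-count limit in at least 1 tumour (Eomes and Tbx5), 2 with no filter and 1 with a common dispersion (Tbx3). Under the looser limit Eomes and Tbx5 entered only through the tumours where they were high, so these 2 calls are no support for their spread. The count stayed at 0 with DESeq2 size factors, among DESeq2 dispersion outliers and without any 1 tumour. With the limit in at least 1 tumour and a tumour left out (chosen after seeing the data) it was 1 to 2. Detected genes numbered 20 (limit of 0.5 RPKM) to 28 (limit of 0.5 CPM) and 24 to 25 with 1 tumour left out, silent genes 28 to 37 and mixed genes 8 to 13. In CPM without length, Foxj3 over Foxj2 turned to 0.61, and Foxk1 over Foxk2 was -1.19, Foxn3 over Foxn2 -1.58, Foxo6 over Foxo1 -4.73 (-2.81 per length), Foxp4 over Foxp1 0.19, Foxf2 over Foxf1 2.59 and Gata2 over Gata3 2.87, all log2. With a pseudocount of 1, Foxo3 over Foxo1 was 1.87, Foxo6 over Foxo1 -1.67, Foxp2 over Foxp1 -0.61, Foxc1 over Foxc2 2.17, Foxf2 over Foxf1 1.49 and Gata2 over Gata3 0.49. With 1 tumour left out, Tbx2 over Tbx3 ranged from -0.74 to 0.28, turning positive without T8. The cause was not tested where a value is not set by the alternative's own scale or filter. Leaving out 1 tumour moved the mean CPM over 1.5 times for Eomes (0.776 without T14, 4.73 with it), Foxd2 (0.465 without T8, 1.22 with it), Tbx5 (0.814 without T8, 2.21 with it), Tbx20 (0.228 without T10, 0.456 with it) and Tbx18 (5.49 without TUN, 8.35 with it). Depth limits genes near 1 CPM: floors are 0.122 to 0.134 CPM. No value was compared with normal brain.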
